A study of Mus musculus with 11 samples.

Results

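The miR-219a and miR-338 hairpins give miRNAs that are typical of oligodendrocytes, the myelinating cells of the central nervous system. Their 5 listed arms, mmu-miR-219a-5p, mmu-miR-219a-1-3p, mmu-miR-219a-2-3p, mmu-miR-338-3p and mmu-miR-338-5p (written below without the species prefix), were taken by name from the 1907 mature miRNA names counted in each library. Of the 5 arms, 4 passed the filter on low counts and were tested among 479 miRNAs, and miR-219a-1-3p did not. Small RNA was sequenced from the brains of male Balb/cOlaHsd mice that are 3 months old in the sample labels, 6 sham-operated and 5 after pMCAO (permanent occlusion of the middle cerebral artery), all taken 3 days after surgery. In the pMCAO mice the left artery was closed for good through an opening in the skull, and in the sham mice the artery was exposed without being closed. The brains were perfused before dissection. The tissue is labelled as cortex for the sham mice and as peri-ischemic cortex for the pMCAO mice, whereas the methods name peri-ischemic tissue for both. The tables of both groups carry the word vehicle, and no agent given to the mice is named in the sources used here. Each library is treated as a separate mouse, as the design and the replicate numbers imply.

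A miRNA hairpin is cut into a 5p and a 3p arm, and the arm that is loaded onto an Argonaute protein pairs with target mRNAs, mainly through its seed at bases 2 to 8. miR-219 and miR-338 rise as oligodendrocyte precursors mature. They repress factors that keep the precursors dividing, among them the growth factor receptor PDGFRA for miR-219 and the transcription factors Sox6 and Hes5. Loss of these miRNAs in the lineage delays myelination. The comparison of pMCAO with sham asks whether their levels in the cortex differ 3 days after an ischemic stroke. In bulk tissue, fewer oligodendrocytes and less miRNA per oligodendrocyte cannot be told apart.

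The arms with a mature sequence in RefSeq (build GRCm38.p6) are shown 5′ to 3′ to let the seeds, in capitals, be compared.
miR-219a-5p: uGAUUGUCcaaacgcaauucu
miR-219a-1-3p: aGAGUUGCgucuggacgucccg
miR-338-3p: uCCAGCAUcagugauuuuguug
miR-338-5p: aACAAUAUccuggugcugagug
The 4 seeds differ from each other, and none of the 1679 mouse mature miRNA names in the RefSeq table shares one of them with these arms. miR-219a-5p is 21 bases long and is the same in the Mir219a-1 hairpin, on the minus strand at chr17:34024983-34025092, and in the Mir219a-2 hairpin, on the minus strand at chr2:29845631-29845727. Its reads therefore cannot be assigned to a locus, while the 3p arms carry their own names. The Mir338 hairpin lies on the minus strand at chr11:120014765-120014862, and is printed with both arms in capitals to show their places in it.
Mir338: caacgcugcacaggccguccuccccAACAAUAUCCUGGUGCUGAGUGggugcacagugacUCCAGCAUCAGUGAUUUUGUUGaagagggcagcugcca

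Mir338 lies in intron 7 of the principal transcripts of Aatk, which have 14 exons, on the strand of the gene and without an exonic base. Aatk encodes a kinase that is abundant in the nervous system. Mir219a-2 lies between genes, 629 bases from Urm1 and 23437 bases from Cercam. Mir219a-1 lies 303 bases from Ring1 and 941 bases from H2-Ke6, and 88 of its bases overlap the lincRNA gene Gm26940. Each locus also has a hairpin annotated on the opposite strand, Mir219b, Mir219c and Mir3065. The arms of these hairpins were nearly absent: miR-219b-5p, miR-219b-3p, miR-219c-5p and miR-3065-5p reached at most 1 count in a library, miR-219c-3p reached 3 counts in 1 library, and miR-3065-3p had 0 counts in all 11 libraries. miR-3065-5p overlaps miR-338-3p by 21 bases on the opposite strand, and it had 3 counts in all.
miR-3065-5p: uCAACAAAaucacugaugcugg

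The libraries held 1429037 to 2319810 counts in the sham group and 744877 to 1411620 in the pMCAO group, so no pMCAO library was as deep as the shallowest sham library, and depth and group cannot be told apart. Levels are given as TMM CPM, the counts scaled by the library total after edgeR's correction for library composition. Fold changes come from edgeR's quasi-likelihood test over the 479 miRNAs with Benjamini-Hochberg adjustment. The test called 34 of the 479 miRNAs at an adjusted p under 0.05, which is 7.1%, of which 13 (2.71%) were lower and 21 (4.38%) higher in pMCAO. The median log2 fold change over all 479 was 0.00.

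Among the tested arms, miR-338-3p fell in the pMCAO cortex and the other 3, miR-338-5p, miR-219a-5p and miR-219a-2-3p, did not pass the test. The count of 1 lower arm of 4 tested stands against the 2.71% of all miRNAs called lower, and 0 arms were called higher. For 0 of the 4 arms did the groups not overlap, against 3.34% of all tested miRNAs that were lower without overlap. The order of the levels was nearly fixed. miR-338-3p was the highest and miR-219a-1-3p the lowest of the 5 arms in 11 of 11 libraries, and miR-338-5p lay below miR-219a-5p and miR-219a-2-3p in 11 of 11. miR-219a-5p and miR-219a-2-3p, which are neighbours in this order, were not separated by their spread, and miR-219a-5p was the higher in 6 of 11 libraries. By mean CPM in sham cortex, miR-338-3p ranked 47 of the 1907 names, miR-219a-5p 103, miR-219a-2-3p 107, miR-338-5p 180 and miR-219a-1-3p 633. The 5 arms together took 0.440% to 0.549% of the counts in sham libraries and 0.286% to 0.540% in pMCAO libraries.

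**Figure D1:**
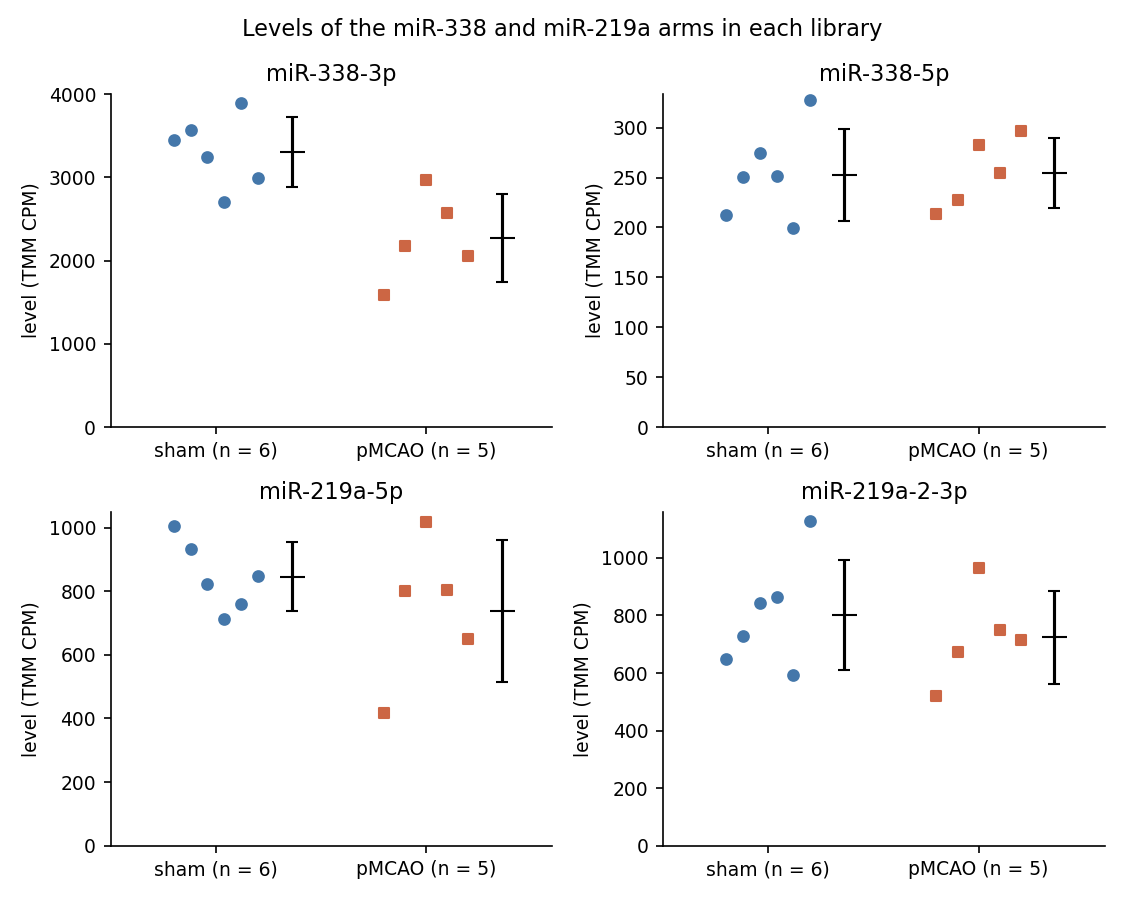
Level in TMM CPM (vertical axis) of 4 arms in each of 6 sham (circles) and 5 pMCAO (squares) libraries, with the group mean and 1 SD beside the points. miR-338-3p averages 3308 in sham and 2273 in pMCAO, whereas the groups overlap widely for the other 3 arms.

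miR-338-3p, the abundant arm of its hairpin, ranged from 2709 to 3892 CPM in the sham libraries, with a median of 3345. In the pMCAO libraries it stood at 1593, 2175, 2971, 2573 and 2051 CPM for replicates 1 to 5. Of these, 4 lay below every sham library, and replicate 3 lay above the lowest sham library, so the groups overlapped. Sham libraries averaged 3308 ± 422 CPM (SD, n = 6) and pMCAO libraries 2273 ± 524 CPM (SD, n = 5). The log2 fold change was -0.54 (SE 0.15, 95% interval -0.87 to -0.21), or 0.687 of the sham level (edgeR's quasi-likelihood test, adjusted p = 0.0453). It was the last of the 34 miRNAs called when ranked by p, and 2.09% of the tested miRNAs had a lower log2 fold change. An exact permutation test of the log2 levels over the 462 arrangements of the libraries gave p = 0.00866 (two-sided). At least 1416 reads lay behind each of these levels.

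The direction held but the call did not. Over 19 other settings (normalizations, tools, filters, the replicate block and leaving out each library), the log2 fold change of miR-338-3p stayed between -0.66 and -0.37. Its adjusted p ranged from 0.0145 to 0.154 and was under 0.05 in 4 of the 19, and the unadjusted p was under 0.05 in 19 of 19, as it was for 24.4% of all tested miRNAs with TMM and all libraries. With the count total alone as the scale, where the 479 tested miRNAs had a median log2 fold change of 0.18, miR-338-3p stood at -0.37 (edgeR's quasi-likelihood test, adjusted p = 0.136). Leaving out 1 library ended the call in 10 of 11 cases, those of all 6 sham libraries and of pMCAO replicates 1, 2, 4 and 5, with adjusted p values from 0.0553 to 0.154. Without pMCAO replicate 3, the library that overlapped the sham range, the adjusted p was 0.0145.

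**Figure D2:**
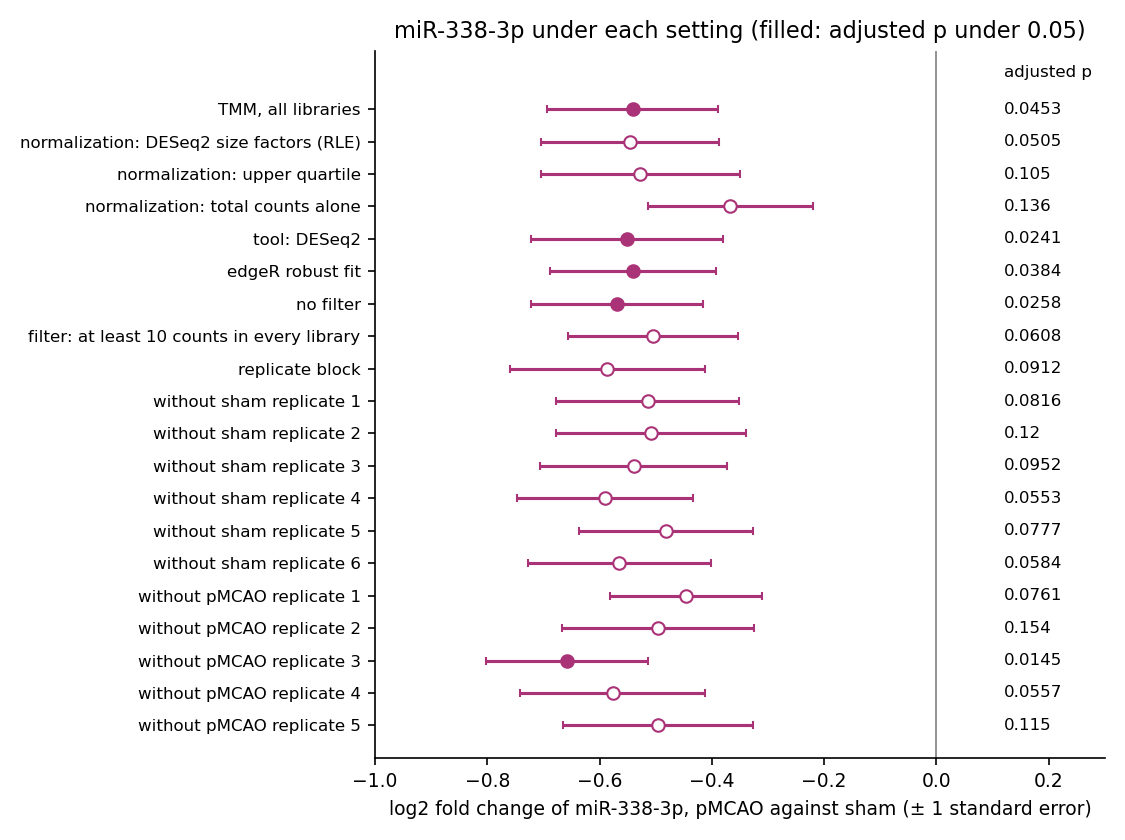
Log2 fold change of miR-338-3p, pMCAO against sham, with 1 standard error (horizontal axis), under TMM with all libraries and under 19 other settings (vertical axis). The adjusted p is printed at the right and filled points are under 0.05. Each estimate is below 0, from -0.66 to -0.37, while 4 of the 19 other settings keep the call.

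miR-338-5p, the less abundant arm of the same hairpin, ranged from 199.6 to 328 CPM in the sham libraries, with a median of 251. In pMCAO replicates 1 to 5 it stood at 214, 227, 283, 254 and 296 CPM, each within the sham range. Sham libraries averaged 253 ± 46.0 CPM (SD, n = 6) and pMCAO libraries 255 ± 35.2 CPM (SD, n = 5). The log2 fold change was 0.01 (95% interval -0.29 to 0.31; edgeR's quasi-likelihood test, adjusted p = 0.992). The interval leaves out a fall of the size seen for miR-338-3p, but not smaller changes in either direction.

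Because both arms come from the same hairpin and the same library, their ratio does not depend on the scaling of the library. There were 9.13 to 19.5 reads of miR-338-3p per read of miR-338-5p in the sham libraries, with a median of 13.0. In pMCAO replicates 1 to 5 the ratio was 7.45, 9.58, 10.5, 10.1 and 6.92, and 5 of 6 sham libraries lay above all 5 pMCAO libraries. The exception was sham replicate 6, at 9.13, and the groups overlapped, with 2 of 5 pMCAO libraries below every sham library. The log2 ratio averaged 3.72 ± 0.40 over sham libraries (SD, n = 6) and 3.13 ± 0.27 over pMCAO libraries (SD, n = 5), a difference of -0.58 (exact permutation test, two-sided, p = 0.0303). That p was not adjusted for the other ratios between arms that were tested, although this adjustment had been planned. Without pMCAO replicate 1 or replicate 5 the difference was -0.52 and -0.50, each with an exact permutation p of 0.0619. The same ratio was then taken for the 137 hairpins whose arms each had a median of at least 10 counts in both groups. This comparison was added after seeing the data. Of these, 14 (10.2%) had an exact p under 0.05 and 0 had an adjusted p under 0.05, and the 5p and 3p arms of miR-338 had an adjusted p of 0.420 by the exact permutation test. By the size of the difference miR-338 ranked 7 of 137, against a median absolute difference of 0.17. The shift of the arm ratio thus passed the exact test before any adjustment and failed the correction over hairpins.

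**Figure D3:**
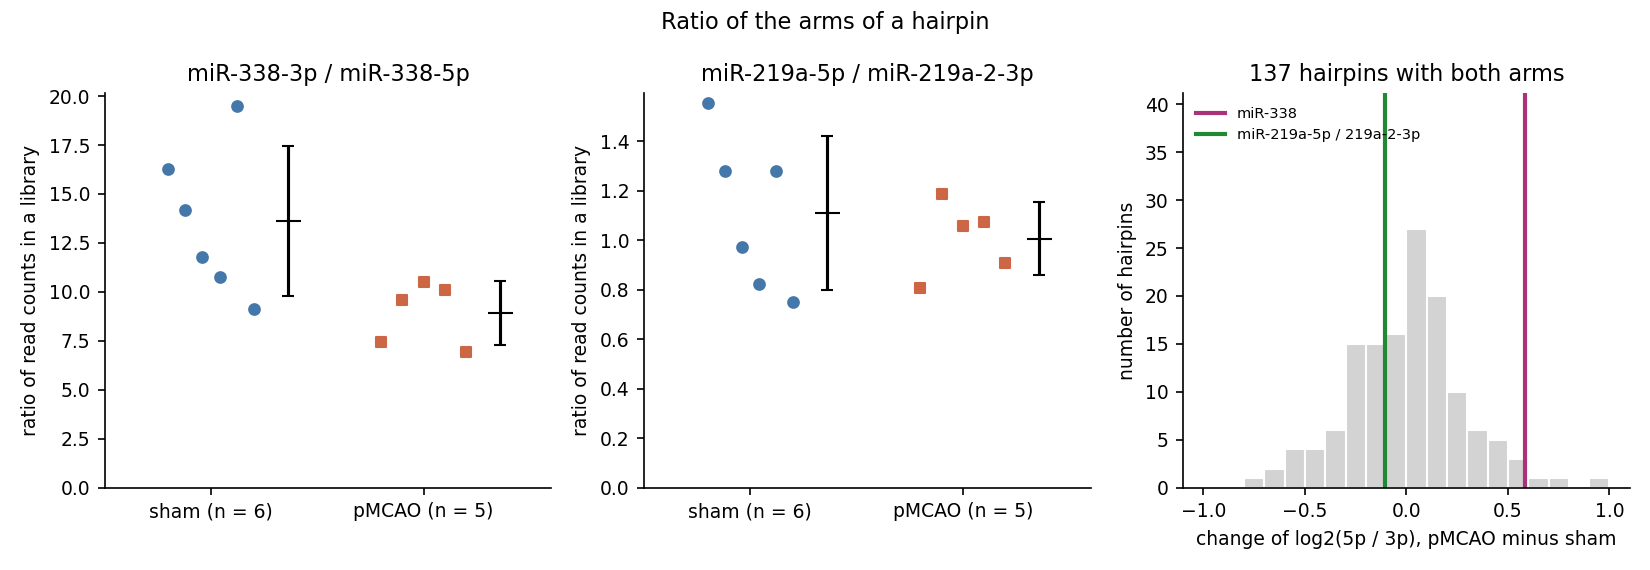
Ratio of the read counts of the arms in each library (left and middle, linear axes from 0) with the mean and 1 SD of 6 sham and 5 pMCAO libraries, and (right) the change of the log2 ratio of 5p to 3p in 137 hairpins as a histogram. The miR-338 ratio lies at 9.13 to 19.5 in sham and at 6.92 to 10.5 in pMCAO, and the groups overlap in it as in the miR-219a ratio. In the histogram the sign is turned, so that the fall of 3p against 5p for miR-338 is at 0.58.

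miR-219a-5p, which both miR-219a hairpins yield, ranged from 712 to 1005 CPM in the sham libraries, with a median of 834. In pMCAO replicates 1 to 5 it stood at 418, 799, 1019, 805 and 649 CPM. The pMCAO libraries spread over the whole sham range and beyond it, with replicates 1 and 5 below every sham library and replicate 3 above every sham library. Sham libraries averaged 846 ± 109 CPM (SD, n = 6) and pMCAO libraries 738 ± 222 CPM (SD, n = 5), and the log2 fold change was -0.20 (SE 0.18, 95% interval -0.59 to 0.20; edgeR's quasi-likelihood test, adjusted p = 0.623). The log2 fold change was -0.06 without pMCAO replicate 1, -0.34 without replicate 3 and -0.02 with the count total alone as the scale. The coefficient of variation was 12.8% in sham and 30.1% in pMCAO.

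miR-219a-2-3p, the 3p arm of the Mir219a-2 hairpin, ranged from 594 to 1129 CPM in the sham libraries, with a median of 787. In pMCAO replicates 1 to 5 it stood at 519, 673, 965, 750 and 713 CPM. Replicate 1 was below every sham library and the other 4 were within the sham range. Sham libraries averaged 802 ± 193 CPM (SD, n = 6) and pMCAO libraries 724 ± 161 CPM (SD, n = 5). The log2 fold change was -0.15 (SE 0.18, 95% interval -0.54 to 0.24; edgeR's quasi-likelihood test, adjusted p = 0.710). Without 1 library it lay between -0.28 (without pMCAO replicate 3) and -0.02 (without sham replicate 6), and its direction turned to 0.0152 when the count total alone was the scale. Neither miR-219a arm passed the test. The interval of miR-219a-5p includes the -0.54 estimated for miR-338-3p, and that of miR-219a-2-3p ends just above it.

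miR-219a-1-3p, the 3p arm of the Mir219a-1 hairpin, was close to the limit of detection. It had 1 to 5 counts in the sham libraries, with a median of 3.5, and 5, 0, 3, 4 and 0 counts in pMCAO replicates 1 to 5, and it was not tested. At the same time miR-219a-2-3p had 815 to 1905 counts in the sham libraries. There were thus at most 0.00391 reads of miR-219a-1-3p per read of miR-219a-2-3p in a sham library and at most 0.0108 in a pMCAO library. The 3p arm that was found in this cortex was that of the Mir219a-2 hairpin in 11 of 11 libraries. How the shared miR-219a-5p reads divide between the hairpins cannot be read from these counts.

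The ratio of miR-219a-5p to miR-219a-2-3p ran from 0.750 to 1.55 in sham and from 0.807 to 1.19 in pMCAO, with no difference beyond the spread between libraries (difference of the log2 ratio -0.10, exact permutation test, two-sided, p = 0.619). Unlike the miR-338 hairpin, in which the 3p arm dominated in every library, miR-219a-5p and miR-219a-2-3p had about equal counts. Reads of miR-219a-5p match both miR-219a hairpins, and how such reads were counted is not given in the sources used here. The balance of the arms within a miR-219a hairpin therefore cannot be read from this ratio. The ratio of miR-219a-2-3p to miR-338-3p, which sets the hairpins against each other, ran from 0.153 to 0.377 in sham and from 0.292 to 0.348 in pMCAO (difference of the log2 ratio 0.42, exact permutation test, two-sided, p = 0.106). Without sham replicate 6, the library with the highest ratio, the difference was 0.55 (exact permutation p = 0.0238). This was the only 1 of 11 fits without 1 library with p under 0.05, and p reached 0.198 (exact permutation test). The sham libraries were the more spread in this ratio, with an SD of 0.49 on the log2 scale against 0.09 in pMCAO.

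Across libraries, 2 of the 6 pairs of arms had an adjusted p under 0.05 for Pearson's r, each joining arms of separate hairpins. The share of pairs of other miRNAs that would pass was not taken, so this count cannot be read as particular to these arms. Pearson's r and Spearman's rho were taken on log2(CPM + 1) for the 6 pairs of the 4 tested arms, which share libraries and their depth. Permutation p values (100000 resamples over 11 libraries, exact within sham) were adjusted by Benjamini-Hochberg over the 6 pairs. The resamples over 11 libraries ignored the group, so a difference between sham and pMCAO can enter those r and p values. miR-219a-2-3p and miR-338-5p had r = 0.85 (permutation p = 0.00095, adjusted 0.0057) and rho = 0.81 (permutation p = 0.00387, adjusted 0.0232). Without the 2 libraries farthest from the median, sham replicate 6 and pMCAO replicate 1, r was 0.74 (permutation p = 0.0221), and within the 6 sham libraries it was 0.97 (exact permutation p = 0.00417, adjusted 0.025). The rank correlation within sham was rho = 0.94 (exact permutation p = 0.0167) and missed the threshold after adjustment, at 0.1. Neither arm had passed the test of pMCAO against sham.

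miR-219a-5p and miR-338-3p had r = 0.78 over the 11 libraries (permutation p = 0.00521, adjusted 0.0156) and rho = 0.59 (permutation p = 0.0609, adjusted 0.183). Without the 2 libraries farthest from the median, pMCAO replicates 1 and 3, r was 0.60 (permutation p = 0.0888). The relation rested on pMCAO replicate 1, since r was 0.53 without it alone (permutation p = 0.113) and 0.80 without replicate 3 alone (permutation p = 0.00438). Within the sham libraries r was 0.38 (exact permutation p = 0.454). For the arms of the same hairpin the r values did not pass. For miR-338-3p with miR-338-5p r was -0.02 over 11 libraries (permutation p = 0.946) and -0.64 within sham (exact permutation p = 0.158), and for miR-219a-5p with miR-219a-2-3p it was 0.54 (permutation p = 0.0885) and -0.19 (exact permutation p = 0.7). miR-219a-2-3p and miR-338-3p had r = 0.32 over 11 libraries (permutation p = 0.339, rho 0.09) and, with the sign turned, -0.78 within sham (exact permutation p = 0.0653, adjusted 0.196), where rho was -0.89 (exact permutation p = 0.0333, adjusted 0.1). For miR-219a-5p and miR-338-5p, r was 0.24 (permutation p = 0.505) and within sham -0.06 (exact permutation p = 0.915). Whether one pair's correlation differs from another's was not tested.

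**Figure D4:**
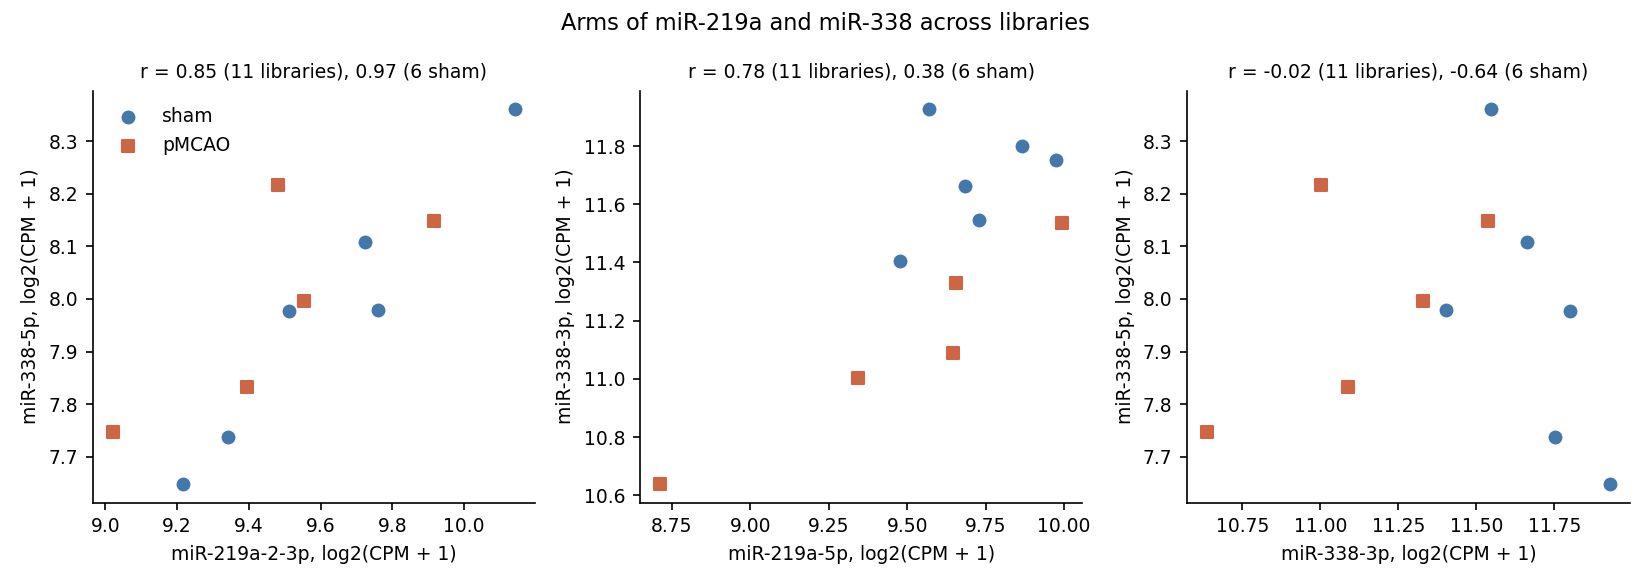
Levels of pairs of arms, log2(CPM + 1) on both axes, in 6 sham (circles) and 5 pMCAO (squares) libraries. miR-219a-2-3p and miR-338-5p (left) lie along a line with r = 0.85, miR-219a-5p and miR-338-3p (middle) have r = 0.78, which rests on the pMCAO library at the lower left, and the arms of miR-338 (right) have r = -0.02.

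The other miRNAs whose levels were most like those of miR-338-3p over the 11 libraries, among 475 candidates, were miR-30b-5p (r = 0.93), miR-9-3p (r = 0.90) and miR-23b-3p (r = 0.89). Each was lower in pMCAO by its estimate, with log2 fold changes of -0.44, -0.26 and -0.35, of which that of miR-23b-3p passed the test (edgeR's quasi-likelihood test, adjusted p = 0.0356). Within the sham libraries the likeness of miR-23b-3p turned to r = -0.30, whereas it stayed at 0.88 for miR-30b-5p and 0.87 for miR-9-3p. The nearest to miR-219a-2-3p were miR-667-5p (r = 0.85), miR-34c-3p (r = 0.85) and miR-34b-5p (r = 0.69). miR-667-5p and miR-34c-3p have means of 8.03 and 12.8 CPM in sham cortex, so their values rest on few reads. These r values are given as a description, since the highest of many were taken.

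Other miRNAs known from the oligodendrocyte lineage were set beside the arms. Of 6 miRNAs tied to maturation, 5 were tested. miR-146a-5p, which is also induced by inflammation and stands in the myeloid list too, rose with a log2 fold change of 1.05 (edgeR's quasi-likelihood test, adjusted p = 0.0434), a call that was lost in 9 of 11 fits without 1 library, those without sham replicate 1 and pMCAO replicate 4 being the exceptions. miR-138-5p, which promotes the early phase of differentiation, stood at 0.21, miR-23a-3p, which favours myelin formation through lamin B1, at -0.00243, miR-32-5p at 0.05 and miR-27a-3p at -0.06, and these 4 did not pass. miR-297c-5p, with at most 3 counts in a library, was not tested. The median log2 fold change of the 5 was 0.05, close to that of all tested miRNAs, of which 4.38% were called higher.

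Of 7 miRNAs tied to the precursor state or to a block of maturation, 0 were called by edgeR or by DESeq2. In edgeR 3 had an unadjusted p under 0.05, against 24.4% of all tested miRNAs. miR-17-5p, which promotes proliferation of the precursors, stood at 0.66 (edgeR's quasi-likelihood test, adjusted p = 0.102), with each pMCAO library above every sham library, and the groups did not overlap in 7.52% of all tested miRNAs. miR-19b-3p from the same cluster stood at 0.36 and miR-212-3p at -0.23, and these are the others with an unadjusted p under 0.05. The remaining 4 lay at -0.10 for miR-9-5p, 0.24 for miR-7a-5p, -0.22 for miR-145a-5p and 0.35 for miR-125a-3p. The median of the 7 was 0.24, against 0.00 over all tested miRNAs. These lists overlap with those of neurons and mural cells, so they are not specific to the lineage.

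**Figure D5:**
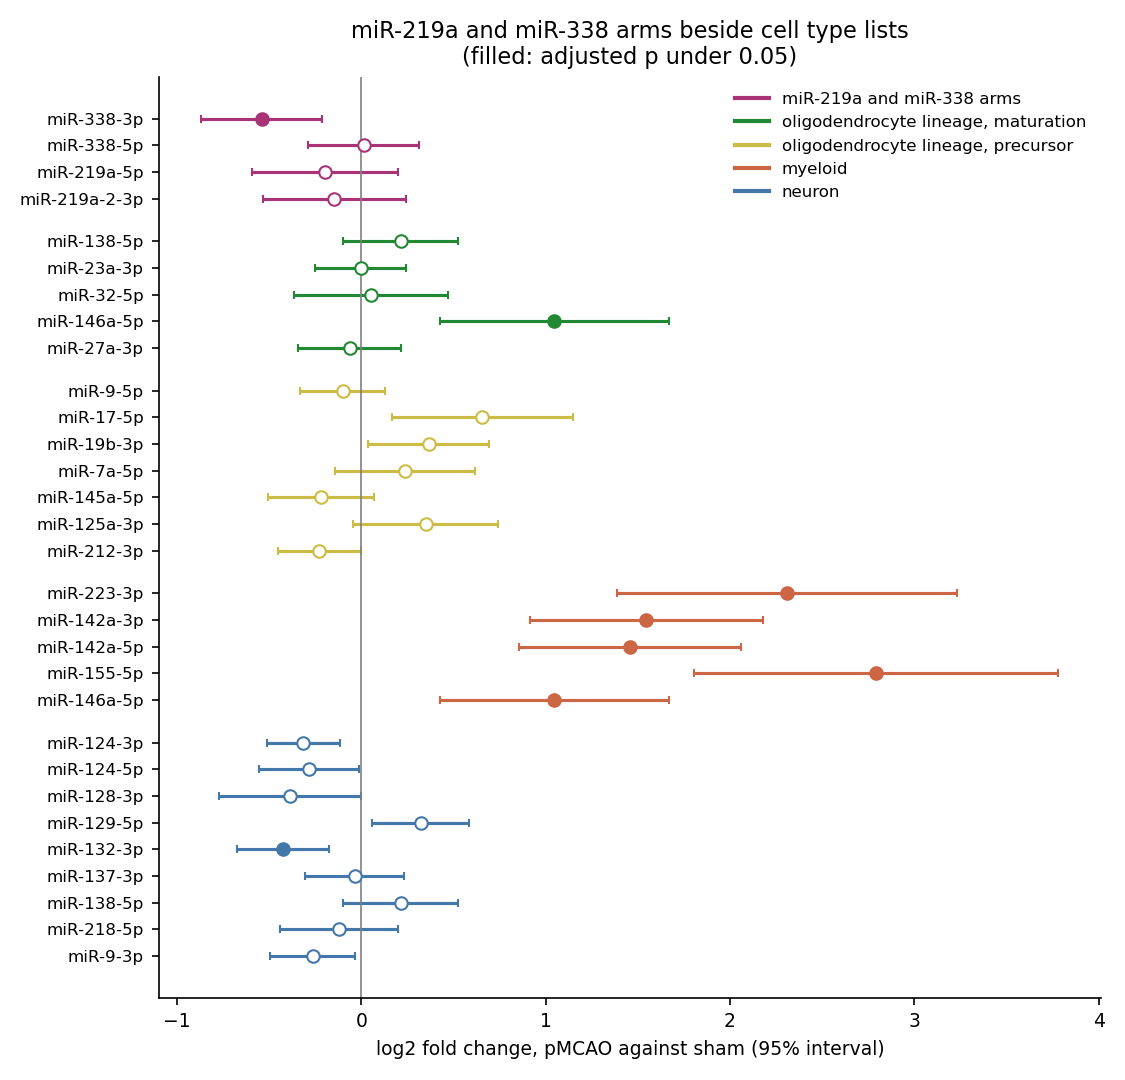
Log2 fold change with its 95% interval (horizontal axis), pMCAO against sham, of the 4 tested arms and of the tested miRNAs in 4 cell type lists (vertical axis), 6 sham and 5 pMCAO libraries. Filled points have an adjusted p under 0.05: miR-338-3p at -0.54, miR-146a-5p at 1.05 (drawn in 2 lists), the myeloid miRNAs and miR-132-3p at -0.43.

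Levels of miRNAs typical of other cell types differed between the groups as well. Over all 479 tested miRNAs, edgeR called 4.38% higher and 2.71% lower, and 24.4% had an unadjusted p under 0.05. The 5 myeloid miRNAs all rose, led by miR-155-5p at 2.79 and miR-223-3p at 2.31, and their summed level was 326 to 790 CPM in sham and 871 to 3986 CPM in pMCAO. Of 9 neuronal miRNAs, 1 fell, miR-132-3p at -0.43 (edgeR's quasi-likelihood test, adjusted p = 0.0412), and miR-124-3p stood at -0.32 (adjusted p = 0.0523). miR-129-5p at 0.32 and miR-138-5p at 0.21 went the other way without passing. The rest stood at -0.29 for miR-124-5p, -0.39 for miR-128-3p, -0.04 for miR-137-3p, -0.12 for miR-218-5p and -0.26 for miR-9-3p. An unadjusted p under 0.05 in edgeR was reached by 6 of the 9, miR-129-5p among them. The neuronal median was -0.26 and their summed level was 323602 to 406057 CPM in sham and 273327 to 324663 CPM in pMCAO. The part of these differences in the lower level of miR-338-3p was not tested. Of 5 mural and fibroblast miRNAs, 1 rose, miR-214-3p at 1.68 (edgeR's quasi-likelihood test, adjusted p = 0.0296), and DESeq2 called 2 higher. miR-199a-3p stood at 1.06 (edgeR's quasi-likelihood test, adjusted p = 0.0547), miR-199a-5p at 0.79, miR-143-3p at -0.04 and miR-145a-5p at -0.22, with a median of 0.79 and 3 of 5 at an unadjusted p under 0.05. In the endothelial list (2 tested), the erythrocyte list (2 of 5 tested), the choroid plexus and ependyma list (4 of 5 tested) and for miR-150-5p of lymphocytes, 0 were called by edgeR or DESeq2, and 1 miRNA of the choroid plexus and ependyma list had an unadjusted p under 0.05. The endothelial miR-126a-3p and miR-126a-5p stood at log2 fold changes of -0.05 and 0.26 (median 0.10), and the erythrocyte miR-451a and miR-144-3p at 0.96 and 1.17 (median 1.07). In the choroid plexus and ependyma list miR-204-5p stood at -0.33, miR-449a-5p at 0.86, miR-34b-5p at -0.15 and miR-34c-5p at -0.0093 (median -0.08), and miR-150-5p stood at -0.25. Erythrocyte miRNAs, a sign of residual blood, summed to 49.2 to 5375 CPM in sham and 640 to 4735 CPM in pMCAO.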

How the data were processed

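Small RNA libraries from 6 sham and 5 pMCAO cortices were compared. The authors deposited raw read counts per mature miRNA name for each library. According to the methods and the submitters' processing notes, reads of an Ion Torrent sequencer were filtered by length, mapped to mm10 with Bowtie and counted on miRBase entries with HTSeq. How reads that matched several places or the opposite strand were treated is not given in the sources used here, which bears on miR-219a-5p, whose hairpins share its sequence. The length filter is already in the counts.

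Tests were run in R 4.3.3, mainly with edgeR 4.0.16 (filterByExpr with a minimum count of 10 and a minimum total of 15, TMM, glmQLFit and glmQLFTest, no covariates, Benjamini-Hochberg adjustment, threshold 0.05) and, as an alternative, DESeq2 1.42.0. The F statistic of each miRNA gave the standard error of its log2 fold change. Arm ratios used a pseudocount of 0.5 counts for their logarithm, and were compared by exact permutation over 462 arrangements in Python 3.11.15 with scipy 1.17.1, where the smallest possible p is 0.00216. The p values of the ratios between the listed arms were not adjusted over those ratios, although this had been planned. Correlations used log2(CPM + 1), over arms with a median of at least 10 counts in both groups. The scripts were tested on simulated data. All 25 pairs of libraries of the same group differed by more than sampling noise (chi-square divided by its degrees of freedom 20.9 or higher). The reads carry no molecular identifiers. Sequences and positions are from RefSeq and the GENCODE annotation of GRCm38.

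The arms and the cell type lists (oligodendrocyte maturation and precursor, neuron, myeloid, lymphocyte, erythrocyte, endothelium, mural cell and fibroblast, choroid plexus and ependyma) were chosen with earlier results of these data known, from general knowledge. The miRNAs named are the 5 arms, the arms of the opposite-strand hairpins, the oligodendrocyte lists, the called members and the first marker of each other list, and the 3 most similar to miR-219a-2-3p and to miR-338-3p. Other members of the neuronal, erythrocyte, endothelial, mural and choroid plexus lists were named once their values had been seen. The alternatives were 3 other normalizations, DESeq2, a robust fit, other filters, thresholds and pseudocounts, the replicate number as a block, and leaving out each library. The comparison of arm ratios over all hairpins was added after seeing the data.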

Additional observations from a re-analysis of the deposited data

How the results depend on the processing

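The log2 fold change of miR-338-3p kept its direction in each alternative and lost the adjusted threshold of 0.05 with DESeq2's size factors in edgeR (-0.55), the upper quartile (-0.53), the count total (-0.37), at least 10 counts in every library (-0.51), and by construction at an adjusted p under 0.01 (-0.54); leaving out 1 library gave -0.66 to -0.45, and 0 to 1 arms called lower. In these 5 settings 0 arms were called lower. The count of all miRNAs called lower, 13, was 4 with the upper quartile, 1 with the count total, 8 without a filter, 3 with at least 10 counts, 25 at a threshold of 0.1, 2 at 0.01, and 2 to 13 without 1 library, and the 21 called higher became 43 with the count total, 32 at 0.1, 12 at 0.01 and 13 to 27 without 1 library. The cause was not tested. The count total called 1 precursor miRNA higher, and of the maturation list 0 were called higher at 0.01 and 0 to 1 without 1 library. The sign turned for miR-219a-2-3p with the count total (0.0152), for miR-338-5p without a filter (-0.0154) and in fits without 1 library (-0.0366 to 0.11).

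The replicate numbers did not pair the samples: deviations of same-numbered libraries correlated at -0.08 to 0.23, over 0.1 in 3 of 5 pairs, and 2 of 5 pMCAO libraries correlated best with the sham library of their number. With the number as a block, miR-338-3p stood at -0.59 (edgeR, adjusted p = 0.0912), 0 arms and 2 of all miRNAs were called lower, 0 of the maturation list were called higher, and the paired log2 ratio of the miR-338 arms was -0.69 (exact sign-flip test, p = 0.0625, the smallest that 5 pairs allow). Adjusted over all hairpins that ratio stayed at -0.58 (adjusted p = 0.420, exact permutation test).

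Without 1 library, the log2 ratio of the miR-338 arms changed by -0.69 to -0.47 (exact p under 0.05 in 9 of 11), that of the miR-219a arms by -0.21 to 0.00223 and that of miR-219a-2-3p to miR-338-3p by 0.29 to 0.55. The median of the erythrocyte list ranged from 0.43 to 3.73 without 1 library, the highest without sham replicate 1. Correlations without 1 library ranged from 0.17 to 0.67 for miR-219a-5p with miR-219a-2-3p (the highest, without sham replicate 1, with a permutation p of 0.0336), 0.53 to 0.88 with miR-338-3p and -0.10 to 0.41 with miR-338-5p, from -0.0816 to 0.55 for miR-219a-2-3p with miR-338-3p, and from -0.37 to 0.24 for the miR-338 arms. Without the 2 farthest libraries and within sham, r was -0.0298 and -0.19 for miR-219a-5p with miR-219a-2-3p, 0.60 and 0.38 with miR-338-3p, and -0.26 and -0.0587 with miR-338-5p, and for miR-219a-2-3p with miR-338-3p -0.15 and -0.78. Depth limits miR-219a-1-3p, with at most 5 counts in a library.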
